A study of Mus musculus with 16 samples.

Results

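The 8 libraries described here hold the RNA of uninduced cells, those kept without doxycycline (DOX), from an inner medullary collecting duct line of mouse kidney. They are 8 of the 16 libraries of the series, chosen by their labels alone and by no measured value. They form 2 groups of 4: cells of passage 7 without DOX and cells of passage 4 without DOX. The line came from a Pkd2 knockout mouse, and DOX induces the knockout. With DOX the Pkd2 transcript was lower but not absent, at 15.8 to 21.1 TPM. Pkd2 encodes polycystin-2, an ion channel found in cilia and in the endoplasmic reticulum. The titles call all the cells Pkd2 knockout cells, while the genotype label of these 8 libraries is wild type. The labels do not give the promoter that drives the inducible system. All cells grew for 10 days on permeable filters in RenaLife medium with its supplement kit and 5% fetal bovine serum. No label names vasopressin or aldosterone among the additions. The labels do not say whether replicates came from separate cultures, so their spread may be technical. What follows gives levels, with no test of DOX or of passage.

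The collecting duct is the last tubule segment of the kidney, and its inner medullary part sets the final water and urea content of urine. Its principal cells take up sodium through the epithelial sodium channel, a complex of the Scnn1a, Scnn1b and Scnn1g subunits. They take up water through aquaporin 2, which vasopressin brings to the apical membrane by way of its receptor Avpr2 and cyclic AMP. Intercalated cells, the other cell type of the duct, move acid and bicarbonate. Cells of the inner medulla also gather organic osmolytes against the salt and urea around them, a programme driven by the tonicity factor Nfat5.

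The libraries held 9937504 to 14757760 counts, 101468731 in all. Levels are given in TPM, a unit of transcript abundance that scales each gene's count to its exon length and each library to the same total, so that genes can be compared with each other. A count of 1 on a gene of 1 kb of exon was worth 0.231 to 0.342 TPM. A gene was called on where it had at least 1 TPM in all 8 libraries, off where it was under 0.1 TPM in all 8, and low or mixed otherwise. On a gene of 1 kb of exon, 1 count in 1 library was thus enough to take it out of the class off. Of 22028 protein-coding genes, 11660 (52.9%) were on, 3984 (18.1%) low or mixed and 6384 (29.0%) off, and 5560 (25.2%) had no count in any library. The median of the mean levels of all protein-coding genes was 3.72 TPM. Among sensory receptor genes, 1083 of 1135 olfactory receptor genes and 316 of 333 vomeronasal receptor genes were off. Replicates 1 and 2 lay closer to each other than to replicates 3 and 4 at both passages, and the genes of the mitochondrial genome took 1.97% and 2.00% of counts in passage 7 replicates 3 and 4 and 1.76% and 1.80% in those of passage 4, against 1.09% to 1.39% in replicates 1 and 2. Pkd2 had 65.4, 63.5, 60.8 and 62.2 TPM in passage 7 replicates 1 to 4, against 49.4, 48.2, 46.2 and 47.7 TPM in passage 4 replicates 1 to 4. In all 8 libraries it lay above the 15.8 to 21.1 TPM of the 8 libraries with DOX.

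The label of the cells was set against 5 genes that mark the collecting duct. Of these 5, 3 were on, a share near the 52.9% of all protein-coding genes, so the count alone says little about the label. Krt19, a keratin of duct epithelia, had 1817, 2019, 1863 and 1795 TPM in passage 7 replicates 1 to 4, against 1373, 1453, 1276 and 1204 TPM in passage 4 replicates 1 to 4. Cldn3, a claudin that seals tight junctions, had 867, 933, 1031 and 988 TPM in passage 7 replicates 1 to 4, against 627, 630.1, 710.2 and 681 TPM in passage 4 replicates 1 to 4. Hsd11b2, which inactivates glucocorticoids and so reserves the mineralocorticoid receptor for aldosterone, had 33.8, 30.7, 24.2 and 31.1 TPM in passage 7 replicates 1 to 4, against 23.6, 18.0, 21 and 18.3 TPM in passage 4 replicates 1 to 4. The passage 7 libraries were the higher ones for all 3 genes, with no overlap between the passages, as 29.6% of the genes that were on had no overlap in one direction or the other. Scnn1g, the gamma subunit of the epithelial sodium channel, was low or mixed, with 1.58, 1.29, 0.811 and 0.343 TPM in passage 7 replicates 1 to 4, against 2.98, 3.15, 2.55 and 1.56 TPM in passage 4 replicates 1 to 4. It reached 1 TPM in all 4 libraries of passage 4 and in 2 of 4 of passage 7, and the passages overlapped. Aqp2, the defining gene of principal cells, had no count in any of the 8 libraries, nor in the 8 with DOX. With 3 counts as the limit that a count of 0 allows, its level lay under 0.489 to 0.724 TPM, depending on the library. This limit covers counting error only. The cells thus carry the label of a collecting duct line and had the keratin, claudin and steroid enzyme among the 5 markers. Scnn1g was low or mixed, and the water channel transcript Aqp2 was not detected at this depth. Bulk RNA cannot tell fewer cells with a transcript from less of it per cell.

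**Figure D1:**
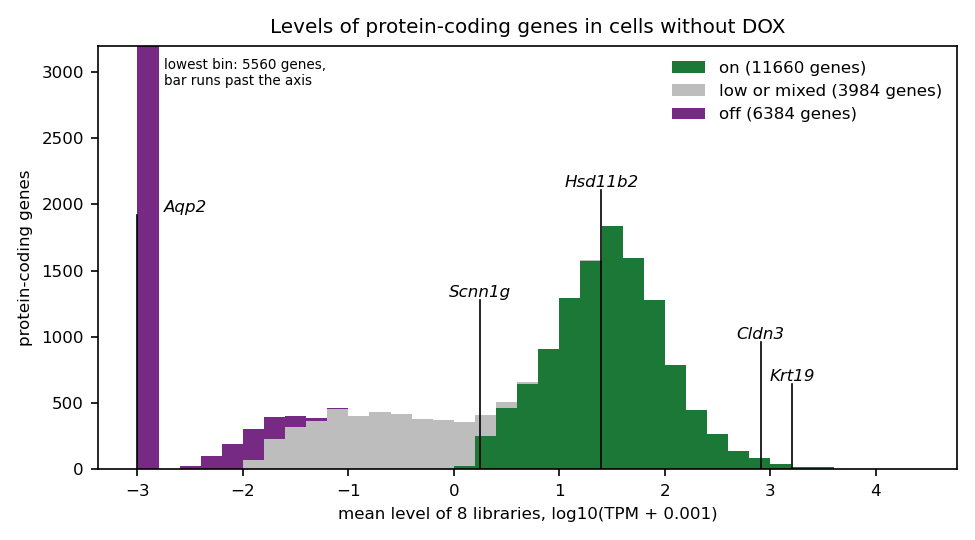
Number of protein-coding genes by mean level of the 8 libraries, as log10(TPM + 0.001), coloured by class, with vertical lines at the 5 collecting duct markers. Genes that were on form a peak between about 1 and 2 on this axis, Aqp2 sits in the lowest bin with the genes that had no count, and Krt19 and Cldn3 lie in the upper tail.

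The stretch from 250 bases before to 50 bases after the transcription start is shown for the markers that RefSeq's promoter table (GRCm38.p6) holds, because they span the classes off (Aqp2), low or mixed (Scnn1g) and on (Cldn3), and for Krt8, a keratin of simple epithelia that was on with the highest mean of the keratins, above Krt18 in 5 of 8 libraries. Capitals mark matches, on either strand, to the TATA box (TATAAA), the CCAAT box, the GC box (GGGCGG), the core that GATA factors read (AGATAA) or the cyclic AMP response element TGACGTCA. A match read from the other strand appears as its reverse complement. The positions are chr15:99578806-99579105 on the plus strand for Aqp2, chr7:121734229-121734528 on the plus strand for Scnn1g, chr5:134985964-134986263 on the plus strand for Cldn3 and chr15:102004293-102004592 on the minus strand for Krt8.
Aqp2: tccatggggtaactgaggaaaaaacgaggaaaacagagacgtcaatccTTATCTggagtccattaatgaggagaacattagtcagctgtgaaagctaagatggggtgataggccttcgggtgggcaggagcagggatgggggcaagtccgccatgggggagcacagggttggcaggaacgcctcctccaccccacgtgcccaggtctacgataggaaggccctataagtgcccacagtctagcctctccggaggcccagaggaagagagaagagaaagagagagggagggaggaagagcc
Scnn1g: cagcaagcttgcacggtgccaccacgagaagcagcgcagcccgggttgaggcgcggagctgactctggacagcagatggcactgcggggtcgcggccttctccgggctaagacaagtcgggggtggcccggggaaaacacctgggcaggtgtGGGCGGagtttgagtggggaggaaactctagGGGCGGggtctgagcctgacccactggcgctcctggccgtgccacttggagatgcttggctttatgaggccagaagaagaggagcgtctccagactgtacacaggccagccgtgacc
Cldn3: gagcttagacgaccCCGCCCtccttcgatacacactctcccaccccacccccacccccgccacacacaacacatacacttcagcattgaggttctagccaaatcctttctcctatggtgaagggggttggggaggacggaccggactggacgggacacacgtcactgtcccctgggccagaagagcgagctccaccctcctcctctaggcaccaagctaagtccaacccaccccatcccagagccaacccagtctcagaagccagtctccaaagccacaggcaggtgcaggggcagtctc
Krt8: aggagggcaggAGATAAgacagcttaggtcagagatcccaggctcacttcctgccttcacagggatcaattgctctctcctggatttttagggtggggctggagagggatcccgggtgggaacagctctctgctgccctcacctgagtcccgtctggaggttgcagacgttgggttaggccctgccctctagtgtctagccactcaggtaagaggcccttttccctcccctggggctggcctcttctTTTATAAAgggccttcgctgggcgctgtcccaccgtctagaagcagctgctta
The Aqp2 window holds 1 match, to AGATAA, and the Scnn1g window holds 2 to GGGCGG. The Cldn3 window holds 1 GC box and the Krt8 window holds AGATAA and, on both strands at overlapping letters, TATAAA. The TATAAA of Krt8, as written, begins 1 base before the listed start. Only exact matches were marked, so a window without a mark may still hold a near match. A match is a run of letters and not a shown binding site.

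Over all 13826 protein-coding genes matched to that table, the letters of the start region went with the class of the gene. The median ratio of observed to expected CpG was 0.791 in 7302 genes that were on, 0.352 in 2345 low or mixed ones and 0.181 in 4179 that were off. The median GC content was 61.3%, 55.0% and 46.0% in the same order. GGGCGG lay in 68.0% of the windows of genes that were on, 38.6% of low or mixed ones and 15.3% of those off, against 47.1% of all. TATAAA ran the other way, with 6.41% of genes on, 13.8% of low or mixed and 26.5% of genes off, against 13.7% of all. The 100 most abundant of these genes had TATAAA in 21% of windows and GGGCGG in 66.0%. CCAAT showed no such order, at 39.5%, 36.6% and 40.3%. AGATAA lay in 5.70%, 10.3% and 17% of windows on, low or mixed and off, and TGACGTCA in 3.48%, 1.41% and 1.0%. Without the olfactory and vomeronasal receptors, genes off still had a median CpG ratio of 0.219 and TATAAA in 21.2% of 3018 windows. GC content differed between the classes as given above, and its part in these shares was not tested. By its CpG ratio of 0.361 the Aqp2 window lay above the median of genes off, the Scnn1g window at 0.592 above that of low or mixed genes, and the windows of Cldn3 (0.353) and Krt8 (0.238) below the median of genes on.

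The most abundant transcript was mt-Co1, a cytochrome oxidase subunit of the mitochondrial genome, at a mean of 16302 TPM. The 20 highest genes included 5 of the mitochondrial genome and 3 of MHC class I, which presents peptides to T cells. B2m, the light chain of class I, had 8712, 9050, 8455 and 8226 TPM in passage 7 replicates 1 to 4, against 11099, 11763, 9848 and 9332 TPM in passage 4 replicates 1 to 4. The heavy chain genes H2-K1 and H2-D1 averaged 3675 TPM and 3108 TPM. Spp1, the secreted glycoprotein osteopontin, had 9208, 10118, 9739 and 11110 TPM in passage 7 replicates 1 to 4, against 9198, 8637, 7678 and 7651 TPM in passage 4 replicates 1 to 4. Ly6a, a surface protein held by a lipid anchor, averaged 5773 TPM, and Sprr1a, a precursor of the cornified envelope of stratified epithelia, 4000 TPM. The keratins Krt8 and Krt18, which pair to form the filaments of simple epithelia, averaged 3677 TPM and 3611 TPM, with a ratio of 0.954 to 1.10 in single libraries. Translation and cytoskeleton genes in the list were Eef1a1 (7961 TPM), Rplp1 (3758 TPM), Eef2 (3270 TPM) and Actb (3580 TPM). The calcium-binding S100a11 had 2881 TPM, the secreted Igfbp7 2848 TPM, and Gm23935, annotated as a microRNA gene and the only member that is not protein-coding, 2743 TPM. That value came from 45.5 CPM (counts scaled to the library total, without gene length) over an annotated length of 57 bases, shorter than a read, so the place of Gm23935 among the 20 rests on the division by length. mt-Cytb, mt-Nd1, mt-Nd2 and mt-Nd5 averaged 6832 TPM, 5266 TPM, 2791 TPM and 2642 TPM, and at each passage both libraries of replicates 3 and 4 exceeded both of replicates 1 and 2. The 13 protein genes of the mitochondrial genome were not measured evenly: mt-Co2 averaged 2.09 TPM and mt-Co3 1.99 TPM (both picked after their values were seen), and the cause was not tested.

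**Figure D2:**
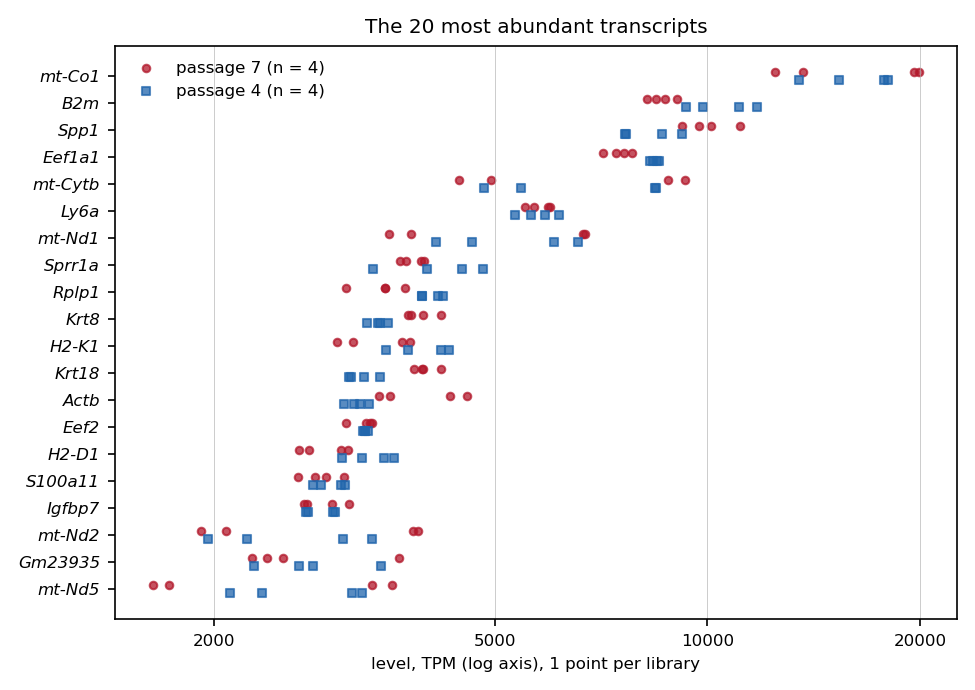
Level in TPM (log axis) of the 20 most abundant transcripts, 1 point per library, passage 7 as circles and passage 4 as squares. The points of mt-Nd5, mt-Cytb, mt-Nd2 and mt-Nd1 spread most, with replicates 3 and 4 to the right, while Eef2 and Ly6a stay within a narrow band at both passages.

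These 20 genes took 10.3 ± 0.69% of all TPM (SD, n = 8), the top 100 took 21.7% and the top 1000 took 52.6%. By mean level, 77 protein-coding genes had 1000 TPM or more, 1720 had 100 to 1000, 7577 had 10 to 100 and 2833 had 1 to 10. Levels were close between libraries: the median coefficient of variation of genes on was 11.3% over 8 libraries, 8.34% within passage 7 and 8.01% within passage 4. The highest library was at most 2 times the lowest for 10309 of 11660 genes on (88.4%) and more than 4 times for 148. Spearman correlations between libraries, across genes, were 0.973 to 0.997.

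Principal cell genes were on in part: 8 of 17 (47.1%) were on, against 52.9% of all protein-coding genes. Another 5 were low or mixed and 4 off, with a median over the members of 2.68 TPM. The genes on were led by Cdh16, the kidney-specific cadherin, at 239.9 TPM, and Tfcp2l1, a factor of collecting duct differentiation, at 114 TPM. Scnn1a, the alpha subunit of the sodium channel, had 131, 120.0, 139.5 and 136 TPM in passage 7 replicates 1 to 4, against 73.8, 73.4, 106 and 99.8 TPM in passage 4 replicates 1 to 4. Its beta partner Scnn1b had 1.10, 0.942, 1.43 and 0.390 TPM in passage 7 replicates 1 to 4, against 5.02, 3.97, 4.04 and 4.58 TPM in passage 4 replicates 1 to 4. Scnn1a was above the other subunits in every library and made up 95.5 ± 3.54% of the TPM of the 3 subunits (SD, n = 8). The matrix protein gene Npnt averaged 99.2 TPM, the mineralocorticoid receptor Nr3c2 29.4 TPM and the kinase gene Sgk1, an aldosterone target, 29.0 TPM. Nr3c2 was even, at 27.4 to 31.8 TPM, while Sgk1 had 20.2, 17.1, 55.0 and 67.4 TPM in passage 7 replicates 1 to 4, against 13.5, 15.4, 22.6 and 20.9 TPM in passage 4 replicates 1 to 4. Sgk1 was thus higher in replicates 3 and 4 at both passages, and highest in those of passage 7. The off members were Aqp2, Aqp4, the basolateral water channel (0.0267 TPM), the factor Elf5 (0.00583 TPM) and the potassium channel Kcnj1 (no count).

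Of 14 genes of the inner medullary collecting duct, 9 (64.3%) were on, against 52.9% of all protein-coding genes. Another 3 were low or mixed and 2 off, and the median member had 27.2 TPM. Besides Krt19, the keratin Krt7 averaged 695 TPM and the sodium pump subunit Atp1b1 567 TPM. The 3 low or mixed members were the betaine carrier Slc6a12 (0.296 TPM), the basolateral water channel Aqp3 (0.133 TPM) and Slc14a2, the urea transporter of this segment, which had 4 counts in all 8 libraries together. The list's summed level was 3437 to 3687 TPM in passage 7 libraries and 2990 to 3106 TPM in passage 4 libraries, with Krt19 the largest part by mean level.

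Genes of the other nephron segments were mostly low or off, against 52.9% of all protein-coding genes on. In the proximal tubule list 3 of 15 were on, 6 low or mixed and 6 off, with a median over the members of 0.0722 TPM. Slc5a2, the glucose carrier of that segment, had 11.8 to 13.8 TPM over the 8 libraries, Slc6a19, a neutral amino acid carrier, 3.28 to 7.54 TPM, and the creatine synthesis enzyme Gatm 1.03 to 4.02 TPM. The opposite-strand gene BC017158, at 19.9 TPM, covers 20.6% of the exon bases of Slc5a2, and its part in that level was not tested. The endocytic receptors Lrp2 and Cubn averaged 0.139 TPM and 0.218 TPM, and the phosphate carrier Slc34a1 and the anion carriers Slc22a6 and Slc22a8 were off, the last pair with no count. In the thick ascending limb list 1 of 11 was on, 6 were low or mixed and 4 off, and the median member had 0.0479 TPM. The member on was Cldn19, a claudin of cation-selective junctions, with 2.77, 3.88, 3.79 and 3.61 TPM in passage 7 replicates 1 to 4, against 21.4, 24.0, 21.5 and 21.3 TPM in passage 4 replicates 1 to 4. Every passage 7 library lay below every passage 4 library, and 29.6% of all genes on had no overlap between the passages in one direction or the other. Umod, the uromodulin gene that defines the limb, averaged 0.128 TPM, and Cldn16 and Kcnj1 had no count. In the distal convoluted and connecting tubule list 2 of 10 were on, 5 low or mixed and 3 off, with a median over the members of 0.394 TPM. Wnk4, a kinase that controls sodium chloride transport, averaged 28.4 TPM, and the magnesium channel Trpm6 2.18 TPM. The calcium channel Trpv6 (2.59 TPM) and the calcium buffer S100g (1.95 TPM) were low or mixed, and Pvalb, Calb1 and Klk1 had no count.

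The thin limb, intercalated cell, podocyte and urothelium lists were also on less often than the 52.9% of all protein-coding genes. The thin limb list had 2 of 6 on, 4 low or mixed and none off, and the median member had 1.00 TPM. Both were high: Cryab, a small heat shock protein, had 706 to 781 TPM and the membrane carrier Slc4a11 322 to 415 TPM. Aqp1, the water channel of the descending limb, stayed at 0.313 to 1.56 TPM. Of 15 intercalated cell genes 1 was on, 8 low or mixed and 6 off, with a median over the members of 0.258 TPM. Without passage 7 replicate 2, and in passage 4 alone, 2 were on. Atp6v0d2, a subunit of the proton pump, had 7.54, 8.12, 10.9 and 13.7 TPM in passage 7 replicates 1 to 4, against 20.8, 18.9, 27.3 and 31.3 TPM in passage 4 replicates 1 to 4. Passage 7 lay below passage 4 without overlap, and 29.6% of all genes on had no overlap in one direction or the other. The factor Foxi1, which defines the cell type, and the pump subunit Atp6v1g3 had no count, Atp6v1b1 averaged 0.0145 TPM and the bicarbonate exchanger Slc4a1 0.00689 TPM. The list summed to 11.4 to 17.7 TPM in passage 7 libraries and 25 to 36.2 TPM in passage 4 libraries. Podocyte genes were on for 4 of 10, low or mixed for 2 and off for 4, and the median member had 0.559 TPM. Podxl, a sialomucin also made by other polarised cells, averaged 69.7 TPM and the actin-binding Synpo 41.5 TPM, while the slit diaphragm gene Nphs1 was off and Wt1 and Ptpro had no count. Of 9 urothelium genes 4 were on and 5 low or mixed, with a median over the members of 0.602 TPM. Krt20, a keratin of superficial urothelium and gut, had 655 to 852 TPM, and the uroplakins Upk3b and Upk1a averaged 25.7 TPM and 10.2 TPM, with Upk1b (0.460 TPM), Upk3a (0.109 TPM) and Krt5 (0.602 TPM) low or mixed.

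**Figure D3:**
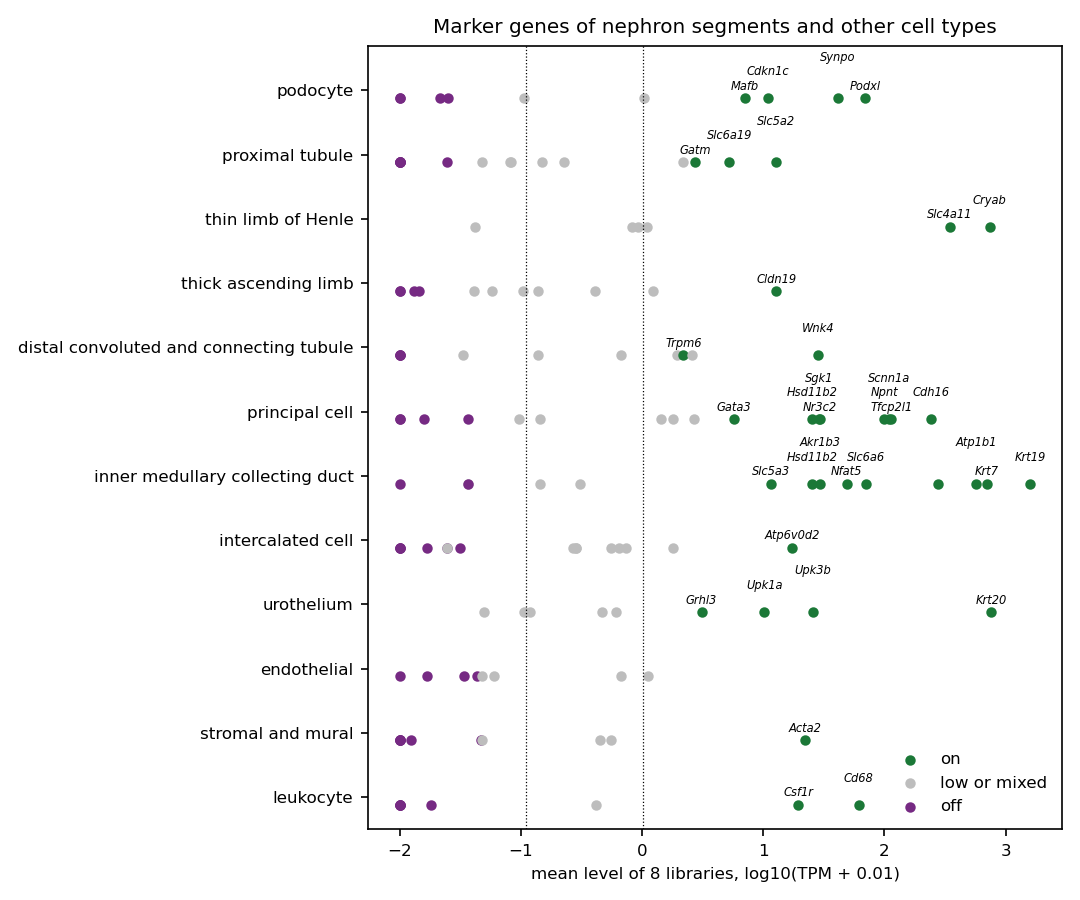
Mean level of the 8 libraries, as log10(TPM + 0.01), of each marker gene, 1 row per nephron segment or cell type, coloured by class, with most genes on named. Dotted lines stand at 0.1 and 1 TPM. The inner medullary collecting duct row and Cryab, Slc4a11 and Krt20 hold the points furthest to the right. The principal cell row reaches 239.9 TPM (Cdh16) and the intercalated cell row 17.3 TPM (Atp6v0d2). The proximal tubule and thick ascending limb rows have their medians, 0.0722 TPM and 0.0479 TPM, left of both lines.

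Lists of cells from outside the tubule served to look for other cell types. All of these lists were on less often than the 52.9% of all protein-coding genes. None of 8 endothelial genes was on in all 8 libraries (1 was in passage 7 alone), 4 were low or mixed and 4 off, with a median of 0.0356 TPM and sums of 2.35 to 2.45 TPM in passage 7 libraries and 1.18 to 1.71 TPM in passage 4 libraries, and Emcn at 0. Of 10 stromal and mural genes 1 was on, 3 low or mixed and 6 off, with a median of 0.0198 TPM and sums of 14.6 to 22.5 TPM in passage 7 libraries and 18.2 to 31.6 TPM in passage 4 libraries. The member on was Acta2, smooth muscle actin, at 13.3 to 31.0 TPM, while Col3a1 and Lum were at 0, Col1a2 averaged 0.00233 TPM and Col1a1 0.438 TPM. Of 8 leukocyte genes 2 were on, 1 low or mixed and 5 off, with a median of 0.00402 TPM and sums of 93.0 to 119.5 TPM in passage 7 libraries and 49.9 to 62.9 TPM in passage 4 libraries. Cd68, a lysosomal membrane protein, had 92.1, 96.4, 71.6 and 68.6 TPM in passage 7 replicates 1 to 4, against 47.1, 43.2, 38.3 and 34 TPM in passage 4 replicates 1 to 4. Csf1r, the receptor of macrophage growth factor, had 25.9, 22.9, 22.5 and 24.2 TPM in passage 7 replicates 1 to 4, against 15.3, 16.8, 13.3 and 15 TPM in passage 4 replicates 1 to 4. The pan-leukocyte gene Ptprc averaged 0.405 TPM, the T cell gene Cd3e 0.00804 TPM, and Adgre1 and Itgam had no count. Opposite-strand Hmgxb3, at 19.7 TPM, covers 15.1% of the exon bases of Csf1r. The part of that gene or of other cells in the levels of Acta2, Cd68 and Csf1r was not tested.

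No aquaporin of 12 was on, against 52.9% of all protein-coding genes. Of the 12, 7 were low or mixed and 5 off, and the median member had 0.0534 TPM. Aqp1 (0.923 TPM) and Aqp11 (0.419 TPM), an intracellular member, were the highest, and the 12 together came to 1.79 to 2.86 TPM in passage 7 libraries and 1.22 to 1.96 TPM in passage 4 libraries. Among 21 genes of sodium entry 12 (57.1%) were on, near the share of all protein-coding genes. Another 7 were low or mixed and 2 off, with a median over the members of 6.75 TPM. After Scnn1a came the sodium bicarbonate carrier Slc4a4 (94.0 TPM), the basolateral sodium, potassium and chloride carrier Slc12a2 (67.3 TPM), and the phosphate carriers Slc20a1 (56.5 TPM) and Slc20a2 (43.9 TPM). Scnn1a exceeded Slc4a4 in 6 of 8 libraries, so their order is not firm. Slc9a3, the apical proton exchanger of proximal tubule and thick limb, was off at 0.0115 TPM. Of 16 sodium and proton pump genes and regulators, 5 (31.25%) were on, 7 low or mixed and 4 off, and the median member had 0.219 TPM. Among sodium pump subunits Atp1b1 gave 81.4 ± 1.79% of the beta subunit TPM, with Atp1b3 (128 TPM) giving most of the rest. Of the FXYD regulators, Fxyd2 was on at 3.80 TPM, Fxyd5 averaged 3.24 TPM and Fxyd1 had no count. Atp12a, the colonic proton pump, had no count, while Atp4a, the gastric one, was on at 1.75 TPM.

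Potassium channel genes were on for 10 of 27 (37.0%), against 52.9% of all protein-coding genes. They were low or mixed for 12 and off for 5, with a median over the members of 0.179 TPM. The twin-pore channel Kcnk1 averaged 267 TPM, the inward rectifier subunit Kcnj16 138 TPM and the acid-sensitive Kcnk5 50.9 TPM. Kcnq1 (11.6 TPM), Lrrc26 (10.2 TPM), an auxiliary subunit of the large calcium-activated channel, and the calcium-activated Kcnn4 (6.99 TPM) followed, and no order between neighbours among them held in more than 5 of 8 libraries. Lrrc26 had the widest range of the listed genes on, with 14.6, 16.4, 16.3 and 20.7 TPM in passage 7 replicates 1 to 4, against 3.14, 5.99, 2.92 and 1.38 TPM in passage 4 replicates 1 to 4. The pore gene of that large channel, Kcnma1 (picked after its value was seen), averaged 0.0558 TPM, and its beta subunits Kcnmb1 and Kcnmb2 had no count. Chloride and bicarbonate genes were on for 20 of 30 (66.7%), low or mixed for 6 and off for 4, and the median member had 10.4 TPM. The calcium-activated chloride channel Ano1 averaged 103 TPM, the anion exchanger Slc4a2 93.3 TPM, the potassium chloride carriers Slc12a4 and Slc12a7 66.6 TPM and 45.9 TPM, the scramblase Ano6 59.6 TPM and the lysosomal exchanger Clcn7 58.5 TPM. Cftr, the cyclic AMP-gated chloride channel (picked after its value was seen), was on at 2.03 to 3.37 TPM. The thick limb channel subunit Bsnd was off, and Slc26a3 had no count.

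Acid and ammonia genes were on for 10 of 17 (58.8%), near the 52.9% of all protein-coding genes. They were low or mixed for 4 and off for 3, with a median over the members of 14.2 TPM. The proton pump subunits that all cells use led, with Atp6v1g1 at 311 TPM, Atp6v1a at 189 TPM, Atp6v0d1 at 160.3 TPM and Atp6v1b2 at 100.4 TPM. Carbonic anhydrase Car2 averaged 99.3 TPM. The kidney forms Atp6v1b1 and Atp6v1g3 were off and Atp6v0a4 averaged 1.79 TPM. Of 10 urea and osmolyte genes 7 (70.0%) were on and 3 low or mixed, and the median member had 20.5 TPM. The amino acid carrier Slc38a2 averaged 197 TPM, the taurine carrier Slc6a6 70.2 TPM and Nfat5 48.7 TPM. Pnpla6, which makes glycerophosphocholine, averaged 31.1 TPM, Akr1b3, which makes sorbitol, 29.3 TPM and the inositol carrier Slc5a3 11.7 TPM. The urea transporters Slc14a1 (0.0506 TPM) and Slc14a2 were low or mixed. Of 33 carriers of glucose, amino acids and organic solutes 21 (63.6%) were on. Another 7 were low or mixed and 5 off, with a median over the members of 7.92 TPM. The glucose carrier Slc2a1 averaged 387 TPM, the cyclic nucleotide exporter Abcc4 304 TPM, the amino acid carrier chains Slc3a2 199 TPM and Slc7a5 99.96 TPM, and the arginine carrier Slc7a1 85.7 TPM. Slc2a2, the glucose carrier of proximal tubule and liver, averaged 0.593 TPM, and Slc2a3 was off.

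**Figure D4:**
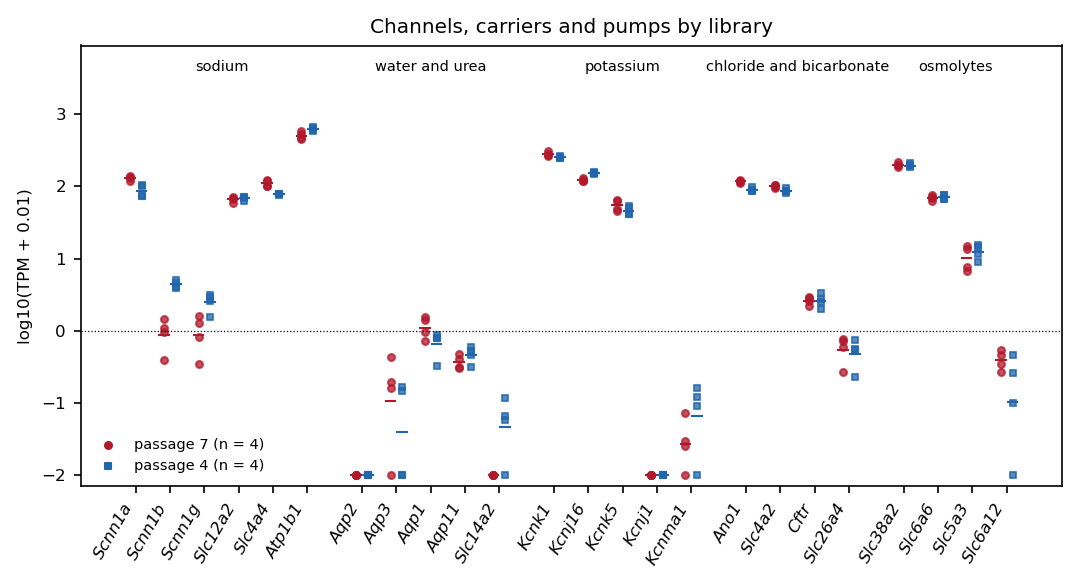
Level of 24 channel, carrier and pump genes as log10(TPM + 0.01), 1 point per library with passage 7 as circles left of passage 4 as squares, and short bars at the mean on this scale. The dotted line is at 1 TPM. Atp1b1 lies highest, Scnn1a lies far above Scnn1b and Scnn1g, and Aqp2 and Kcnj1 are at 0 in every library.

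Receptors coupled to G proteins were on for 20 of 66 (30.3%), against 52.9% of all protein-coding genes. They were low or mixed for 23 and off for 23, most often off among the receptor lists, with 29.0% of all protein-coding genes off. The median member had 0.0904 TPM. The adhesion receptor Adgrg1 averaged 681 TPM, the orphan receptors Gprc5a and Gprc5c 575 TPM and 414 TPM, and the protease receptors F2r and F2rl1 214 TPM and 170.0 TPM. Smo, the signal transducer of hedgehog, averaged 75.3 TPM. The V2 vasopressin receptor Avpr2 was low or mixed, with 1.55, 0.191, 1.59 and 1.78 TPM in passage 7 replicates 1 to 4, against 1.39, 0.530, 1.76 and 2.66 TPM in passage 4 replicates 1 to 4. The libraries of both passages overlapped, and passage 7 replicate 2 lay apart from the other 3. Opposite-strand Arhgap4, at 0.587 TPM, covers 81.3% of the exon bases of Avpr2, and no source used here gives the strand setting of the counting, so reads of the pair may not be told apart. The other vasopressin receptors Avpr1a and Avpr1b had no count. Of the receptors of prostaglandin E, Ptger4 was on at 20.0 to 32.5 TPM and Ptger1 averaged 54.3 TPM (both picked after their values were seen), Ptger3 averaged 1.21 TPM and Ptger2 was off. Another annotated gene covers 71.0% of the exon bases of Ptger1, and its part in its level was not tested.

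Genes of vasopressin and cyclic AMP signalling, Avpr2 among them, were on for 16 of 28, or 57.1%, near the 52.9% of all protein-coding genes, with 9 low or mixed and 3 off and a median over the members of 3.11 TPM. Gnas, the stimulatory G protein, averaged 210.4 TPM. Adcy6 had 156, 137, 127 and 144 TPM in passage 7 replicates 1 to 4, against 112, 111, 124 and 123 TPM in passage 4 replicates 1 to 4, and it gave 89.3 ± 1.31% of the TPM of 9 adenylyl cyclase genes (SD, n = 8). The kinase subunits Prkar1a (289 TPM), Prkaca (142 TPM), Prkacb (98.0 TPM) and Prkar2a (56.8 TPM) followed, and Adcy8 and the phosphodiesterase Pde3a had no count. Purinergic, TRP and related channel genes were on for 14 of 24 (58.3%), also near the share of all protein-coding genes. They were low or mixed for 7 and off for 3, and the median member had 2.89 TPM. The osmosensitive channel Trpv4 averaged 197 TPM, the stretch-gated Piezo1 161 TPM and fibrocystin Pkhd1, mutated in recessive polycystic kidney disease, 66.0 TPM. Trpm7 averaged 27.3 TPM and the ATP-gated P2rx4 23.3 TPM, while P2rx1 and Trpc6 had no count.

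Growth factor receptors were on for 41 of 58 (70.7%), against 52.9% of all protein-coding genes. They were low or mixed for 15 and off for 2, with a median over the members of 24.5 TPM. The collagen receptor Ddr1 averaged 243 TPM, Tgfbr2 193 TPM, the ephrin receptors Epha2 and Ephb4 187 TPM and 98.8 TPM, the Gas6 receptor Axl 166 TPM and the hepatocyte growth factor receptor Met 139 TPM. Axl was at 111 to 139 TPM in passage 7 libraries and 200.5 to 224 TPM in passage 4 libraries. In the ErbB family Erbb2 gave 36.0%, Erbb3 35.7% and Egfr 26.9% of TPM (these 3 picked after their values were seen), while Erbb4 averaged 2.89 TPM. Kdr and Pdgfrb, receptors of endothelial and mural cells, were off. Cytokine receptors were on for 27 of 36 (75.0%), low or mixed for 6 and off for 3, and the median member had 22.1 TPM. Tnfrsf12a, the TWEAK receptor, averaged 476 TPM, the interferon gamma receptor Ifngr1 187 TPM, the TNF receptor Tnfrsf1a 179 TPM, Il13ra1 151 TPM, Il17rc 150.2 TPM and the double-stranded RNA sensor Tlr3 146 TPM. The single-stranded RNA sensors Tlr7 and Tlr8 and the prolactin receptor Prlr were off.

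Nuclear receptors were on for 25 of 49, low or mixed for 14 and off for 10, close to the 52.9% of all genes on, with a median over the members of 3.76 TPM. Nr2f6 and the oxysterol receptor Nr1h2 averaged 138 TPM and 138 TPM, the retinoic acid receptor Rarg 61.0 TPM, Rxra 52.0 TPM, Esrra 48.8 TPM and Rxrb 46.3 TPM. Opposite-strand Ocel1, at 41.6 TPM, covers 54.4% of the exon bases of Nr2f6. Rarg gave 69.5 ± 1.98% of the TPM of the 3 retinoic acid receptors. Pparg and the vitamin D receptor Vdr were low or mixed, at 4.72 TPM and 1.38 TPM.

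Of 72 nephric and epithelial transcription factors 46 (63.9%) were on, against 52.9% of all protein-coding genes. Another 19 were low or mixed and 7 off, and the median member had 7.40 TPM. Sox4 averaged 504 TPM, but opposite-strand Gm26735, at 532.8 TPM, covers 54.6% of its exon bases. Klf6 averaged 273 TPM, the epithelial Ets factors Elf3 and Ehf 247 TPM and 208 TPM, and Pax8, a factor of nephric lineage, 143 TPM. Pax8 had 138, 137, 136 and 139 TPM in passage 7 replicates 1 to 4, against 143, 138, 159 and 149.7 TPM in passage 4 replicates 1 to 4. Its libraries stayed within a narrow band and the passages overlapped. The proximal tubule factor Hnf4a (picked after its value was seen) averaged 0.0377 TPM. Six2, the factor of nephron progenitors, Foxi1 and Emx1 had no count, and Meis1, Barx2 and Osr1 were low or mixed at 1.32 TPM, 1.15 TPM and 0.842 TPM.

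Hox genes, which record position along the body axis, were on for 28 of 39 (71.8%), against 52.9% of all protein-coding genes. They were low or mixed for 11, with none off, and the median member had 15.5 TPM. Hoxd12, Hoxd13 and Hoxb1 averaged 0.0251, 0.0560 and 0.0593 TPM (picked after their values were seen), so only a few counts kept them out of the class off. Of the 30 genes numbered 1 to 10, 27 were on with a median of 33.3 TPM. Of the 9 numbered 11 to 13 only Hoxa11, named after its value was seen, was on, at 11.5 TPM, and the median was 0.33 TPM. Levels did not follow the number throughout, since Hoxb1 and Hoxd1 (0.308 TPM, also picked after its value was seen) were low or mixed. Hoxb9 was the highest, with 256, 280.2, 238 and 238 TPM in passage 7 replicates 1 to 4, against 312, 298, 278 and 270.3 TPM in passage 4 replicates 1 to 4, and gave 18.1 ± 1.08% of all Hox TPM. Hoxb6 (161 TPM), Hoxb7 (157 TPM), Hoxd8 (119 TPM) and Hoxb8 (93.3 TPM) came next. By cluster, 10 of 11 Hoxa genes, 8 of 10 Hoxb, 6 of 9 Hoxc and 4 of 9 Hoxd genes were on. Of the exon bases of Hoxb3, Hoxd3 and Hoxd4, 52.9%, 62.8% and 52.3% lie in another annotated gene, so the levels of these 3 are less certain.

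**Figure D5:**
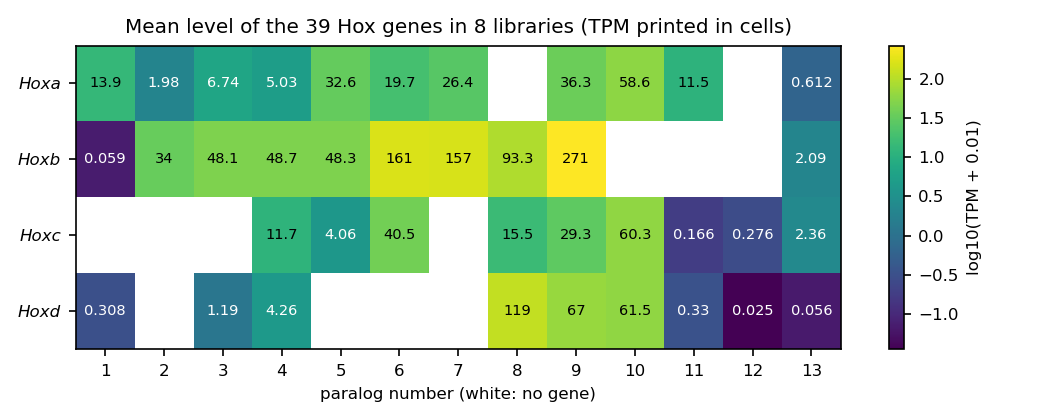
Mean level of the 8 libraries for the 39 Hox genes, clusters as rows and paralog number as columns, coloured by log10(TPM + 0.01) with TPM printed in each cell. Most bright cells run from number 5 to number 10, with Hoxb9 the brightest, and the columns from 11 to 13 are dark apart from Hoxa11.

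Of 28 claudin and tight junction genes 15 (53.6%) were on, near the 52.9% of all protein-coding genes. Another 9 were low or mixed and 4 off, with a median over the members of 12.2 TPM. Cldn4, a sealing claudin, had 2198, 2250, 2730 and 2528 TPM in passage 7 replicates 1 to 4, against 1772, 1796, 2063 and 2170 TPM in passage 4 replicates 1 to 4, and gave 55.6 ± 2.25% of the TPM of 22 claudins, with Cldn3 giving 20.4% and Cldn7 10.8%. Cldn1 averaged 211 TPM, the scaffold Tjp1 151 TPM and Cldn12 137 TPM, while Cldn5, Cldn13, Cldn16 and Cldn18 had no count. Cldn22 lies wholly within opposite-strand Wwc2, at 56.8 TPM, and had 0.552 TPM. Of 27 keratins, cadherins and related genes 15 (55.6%) were on, also near that share. Another 10 were low or mixed and 2 off, and the median member had 9.13 TPM. Epcam, an epithelial adhesion protein, averaged 781 TPM, and of 5 simple keratins Krt8 gave 35.6%, Krt18 34.9% and Krt19 15.4% of TPM. Vim, the filament gene of mesenchyme (picked after its value was seen), was at 0.0488 to 0.269 TPM.

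Secreted signals were on for 33 of 43 (76.7%), against 52.9% of all protein-coding genes. They were low or mixed for 6 and off for 4, with a median over the members of 29.2 TPM. After Spp1 came Lcn2, a siderophore-binding protein made by injured tubules, at 1626 TPM, the stress-induced Gdf15 at 1015 TPM, clusterin Clu at 890.1 TPM, Wnt7b at 397 TPM and the chemokine Cxcl16 at 258 TPM. Wnt7b, which the collecting duct makes during growth of the medulla, had 452, 459, 448 and 426 TPM in passage 7 replicates 1 to 4, against 358, 345, 346 and 339.9 TPM in passage 4 replicates 1 to 4. Wnt9b, Il6 and Shh had no count. All 7 genes of injury and proliferation were on, with a median over the members of 23.3 TPM. The cycle genes Top2a, Cdk1, Mki67 and Ccnb1 averaged 46.9 TPM, 30.3 TPM, 23.2 TPM and 21.2 TPM, and the adhesion protein Vcam1 23.3 TPM. Mki67, a gene of cycling cells, had 34.2, 39.7, 15.3 and 18.1 TPM in passage 7 replicates 1 to 4, against 26.3, 21, 15 and 15.6 TPM in passage 4 replicates 1 to 4, with replicates 1 and 2 above replicates 3 and 4 at both passages. Of the sex chromosome genes the Y-linked Eif2s3y, Ddx3y, Kdm5d and Uty were on, at 48.8 TPM, 36.7 TPM, 11.8 TPM and 11.4 TPM, and Xist was off, with a highest library of 0.0191 TPM. Over all lists, 390 of 706 genes were on, 202 low or mixed and 114 off. Of all 22028 protein-coding genes, 11660 were on, 3984 low or mixed and 6384 off.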

How the data were processed

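Poly(A) RNA was sequenced as strand-marking libraries, 2 reads of 75 bp per fragment, and aligned with STAR 2.6.0c to GRCm38.p6, per the labels' protocols. The authors deposited whole-number counts per gene and, as a separate table, TPM values. The counting tool, its strand setting and how the deposited TPM were made are not given in the sources used here. TPM in the text were computed from the counts and merged exon lengths of GENCODE M21 (GRCm38), which held all 55536 identifiers.

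Genes were classed as on, off or low or mixed by fixed levels of 1 and 0.1 TPM in all 8 libraries. No test was run, since only levels are described, and the precision is the spread over libraries of 9937504 to 14757760 counts. Libraries were grouped by their titles. No pair of replicates agreed within counting noise: chi-square per degree of freedom was 1.87 to 3.24 within replicates 1 and 2 or 3 and 4, and 10.7 to 13.5 across. This does not show that the libraries came from separate cultures.

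The 33 gene lists and their members were chosen with earlier results of these data known. The text names the 20 highest genes, 5 markers, Pkd2 and from each list up to 6 genes on, 3 low or mixed and 4 off; a gene outside this rule was picked after its value was seen. A few genes that the rule names are not reported here. Of 8 deposited TPM columns headed without DOX, 2 correlated best with the count column of the same name and 4 with one headed with DOX, so that table served only as an alternative. Tools were Python 3.11.15, R 4.3.3, edgeR 4.0.16 and DESeq2 1.42.0, the last pair for scaling factors of alternatives only.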

Additional observations from a re-analysis of the deposited data

Results flagged for a closer look

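Avpr2 in passage 7 replicate 2 had 0.191 TPM, while the other 3 libraries of that group had 1.55 to 1.78 TPM, a gap of 0.853 of the group's whole range. It was the only 1 of 62 groups of 4 examined where a sample lay that far from the others, and chance does so in about 1 in 20 groups. The 8 libraries held 121 counts of this gene together, so single libraries rest on few reads.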

How the results depend on the processing

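The count of genes on was 11151 to 12207 under 21 alternatives (other levels for on and off, other gene lengths or scaling, a count minimum, parts of the libraries, or the deposited TPM), against 11660, and that of genes off was 5823 to 7830, against 6384. Leaving out 1 library gave 11674 to 11687 genes on and 5654 to 5706 genes with no count. The share of TPM in the 20 most abundant genes, 10.3%, was 9.15% with the longest transcript as gene length, 5.81% without gene length (CPM) and 8.77% in the deposited TPM table, and 15, 11 and 14 of the 20 genes were shared with those settings. Without 1 library it was 10.2% to 10.5%. Of the 8 columns used from the deposited TPM table, 4 correlated best with a count column headed with DOX, so that alternative does not cover the same libraries. Scnn1g was on by the mean of 8 libraries, in passage 4 alone and in replicates 1 and 2 alone, so 4 markers counted as on there. Aqp2, Hsd11b2, Krt19 and Cldn3 kept their class under all 21 alternatives. Of 693 counts of list members on, 673 were within 1.5 times the main count. The others were the intercalated cell list (2 on, against 1, under 8 alternatives, 1 of them without passage 7 replicate 2), the distal tubule list (4 on at 0.5 TPM, by the mean and in passage 7 alone, 1 at 2 TPM and in the deposited TPM, against 2), the endothelial list (1, against 0, at 0.5 TPM, without gene length, by the mean and in passage 7 alone), the thick ascending limb list (2, against 1, by the mean and in passage 7 alone) and potassium channels (6 at 2 TPM, against 10). No paired analysis was possible because no result comes from a test. At these depths 1 TPM on a gene of 1 kb of exon stood for 2.92 to 4.32 counts, so the class low or mixed rests on few reads.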

Other observations

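Some members of the lists that the rule for naming genes passed over stood out after their values were seen. Both ligands of the receptor Csf1r were on in these cells. Il34 had 165, 160.2, 154 and 158 TPM in passage 7 replicates 1 to 4, against 145, 137, 173 and 187 TPM in passage 4 replicates 1 to 4. Csf1 averaged 114 TPM, and Csf1r itself 19.5 TPM. Vegfa, a growth factor for endothelium, averaged 172 TPM, while its receptors Flt1 and Kdr averaged 1.11 and 0.0242 TPM. Vegfa had 260.5, 234, 170.3 and 160.5 TPM in passage 7 libraries, against 178, 176, 102 and 95.5 TPM in passage 4 libraries, with replicates 1 and 2 above replicates 3 and 4 at both passages. The lactate carrier Slc16a3 had the same order of replicates, with 84.1, 94.8, 61.5 and 53.8 TPM in passage 7 and 76.6, 67.3, 35.2 and 21.5 TPM in passage 4.

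Among transcription factors, Ovol1 varied from 5.57 to 22.2 TPM over the 8 libraries and Elf3 from 161 to 377 TPM, while Sim2, Irx1 and Emx2 were more even. All of these except Elf3 were picked after their values were seen. Sim2, a factor known from neural midline development, averaged 132 TPM, with 122 to 145 TPM in single libraries. Irx1 averaged 71.5 TPM and Emx2, which the developing kidney needs, 54.2 TPM, each with a highest library under 1.5 times the lowest, while its relative Emx1 had no count.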
